A study of Mus musculus with 12 samples.

Results

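The CC chemokine ligands described here are 10 secreted signalling genes, Ccl2, Ccl3, Ccl4, Ccl5, Ccl6, Ccl7, Ccl8, Ccl9, Ccl12 and Ccl19. They were found by matching their symbols to the Ensembl identifiers of the deposited tables, and all 10 were present among the 35697 identifiers of the sham and TBI table and the 55637 of the zileuton table. The study measured messenger RNA from mouse brain after controlled cortical impact (CCI), in which a piston strikes the exposed cortex. By the labels all mice were adult male C57BL/6J wild-type animals of 20 to 25 g, but the 2018 libraries held Xist, a transcript of female cells, which goes against that label. The sham group (SH_WT, n = 3) had the surgery without the impact, and the first TBI group (TBI_WT, n = 3) was collected at 7 days after CCI, both in a batch of 2018. A batch of 2022 held a second TBI group (TBI_7d, n = 3) at 7 days and a group of injured mice given zileuton (Zi_7d, n = 3). Zileuton blocks 5-lipoxygenase, the enzyme that starts leukotriene synthesis, and was injected into the peritoneum in corn oil at 10 mg/kg per day after injury. The study describes the controls of zileuton as vehicle-treated, while the labels of the second TBI group name no vehicle. The library names of the zileuton group all give 7 days, whereas the source labels of 2 of its mice give 8 and 9 days. The tissue was a block of whole tissue, described by the study as pericontusional, so that a larger number of cells of a type and more RNA per cell cannot be told apart in any value below.

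CC chemokines are small proteins named for adjacent cysteines near the amino terminus. They bind G protein-coupled receptors of the CCR family on leukocytes and draw those cells along a concentration gradient. In injured brain, microglia, astrocytes, endothelial cells and infiltrating macrophages are known sources of them, and the ligands of CCR2 are known for bringing monocytes out of the blood.

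By role the 10 genes form 4 sets. Ccl2, Ccl7, Ccl8 and Ccl12 are the monocyte chemoattractant proteins, Ccl3, Ccl4 and Ccl5 are inflammatory chemokines made by macrophages and T cells, Ccl6 and Ccl9 are ligands of CCR1 made largely by myeloid cells, and Ccl19 is a ligand of CCR7, the receptor that guides T cells and mature dendritic cells. The first 9 lie on chromosome 11, where RefSeq lists the CC ligands in the order Ccl2, Ccl7, Ccl11, Ccl12, Ccl8, Ccl1, Ccl5, Ccl9, Ccl6, Ccl3 and Ccl4. Ccl19 lies on chromosome 4 beside Ccl21a.

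The table of RefSeq promoters (GRCm38.p6) held 6 of the 10 genes, Ccl3, Ccl6, Ccl8, Ccl9, Ccl12 and Ccl19. The 250 bases before the start of transcription are shown for 3 ligands that rose together after injury and for Ccl19, for which no change was called. Those of Ccl3 and Ccl6, which also rose, were searched but are not shown. Capitals mark the letters TATAAA (the TATA box), GAGGAA (the core bound by the myeloid factor PU.1) and the NF-kappaB consensus, on either strand, and the promoters lie at chr11:82101595-82101844 on the plus strand (Ccl12), chr11:82114935-82115184 on the plus strand (Ccl8), chr11:83578637-83578886 on the minus strand (Ccl9) and chr4:42756366-42756615 on the minus strand (Ccl19).
Ccl12: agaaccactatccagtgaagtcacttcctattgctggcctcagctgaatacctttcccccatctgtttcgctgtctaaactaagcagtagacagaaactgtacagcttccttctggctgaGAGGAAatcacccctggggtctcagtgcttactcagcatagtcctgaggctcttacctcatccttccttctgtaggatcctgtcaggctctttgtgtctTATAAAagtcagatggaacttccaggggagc
Ccl8: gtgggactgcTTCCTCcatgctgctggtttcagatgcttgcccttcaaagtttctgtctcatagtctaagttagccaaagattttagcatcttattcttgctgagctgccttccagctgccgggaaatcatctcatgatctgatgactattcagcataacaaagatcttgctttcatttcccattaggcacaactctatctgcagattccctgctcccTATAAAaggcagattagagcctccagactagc
Ccl9: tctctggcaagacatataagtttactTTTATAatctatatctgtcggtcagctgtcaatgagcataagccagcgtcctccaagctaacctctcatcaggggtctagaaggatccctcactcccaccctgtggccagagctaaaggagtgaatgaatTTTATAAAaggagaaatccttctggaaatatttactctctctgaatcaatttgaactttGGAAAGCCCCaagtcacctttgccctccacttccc
Ccl19: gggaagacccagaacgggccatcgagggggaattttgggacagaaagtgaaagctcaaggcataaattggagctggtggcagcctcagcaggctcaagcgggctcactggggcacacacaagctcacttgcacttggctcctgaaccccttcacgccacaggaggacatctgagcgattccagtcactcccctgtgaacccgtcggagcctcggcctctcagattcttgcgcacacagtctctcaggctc
TATAAA stood 31 to 26 bases before the start in Ccl12 and 32 to 27 bases before it in Ccl8. Ccl9 held TATAAA at 3 places that overlap in part, 1 of them 92 to 87 bases before the start, and the only NF-kappaB consensus match among the 6 promoters, 35 to 26 bases before the start. GAGGAA was found in Ccl12, Ccl8 and Ccl3. Ccl19 and Ccl3 held GAAANNGAA, the core of the interferon-stimulated response element, which in Ccl3 overlaps the GAGGAA match. Ccl9 held TGANTCA, the AP-1 motif, and none of the 6 promoters held TTGCNNAA, the C/EBP motif. No motif matched in Ccl6. Among 32851 promoters of the same 250 bases, 12.4% held TATAAA, 23.3% GAGGAA, 7.25% the NF-kappaB consensus, 7.13% GAAANNGAA, 6.75% TGANTCA and 9.56% TTGCNNAA, all searched on both strands. The matches describe letters in these windows and no binding was measured.

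A library held 42929862 to 48684674 counts in total in the batch of 2018 and 27845562 to 35453257 in the batch of 2022. The deposited counts were scaled to CPM, counts scaled to 1000000 per library, with edgeR's TMM factors. In the batch of 2018, even numbers made up 62.3% to 64.4% of the counts between 1 and 20, and low counts are therefore not independent molecules and intervals for counts are too narrow. Gfap, the intermediate filament of reactive astrocytes, checks the injury labels and lay at 141 to 221 CPM in sham and 2240 to 2620 CPM in TBI. The 2018 libraries, all labelled male, held 18.5 to 23.5 CPM of Xist, the transcript of the inactive X chromosome, beside 51.7 to 66.8 CPM of the Y-linked Ddx3y, and the 2022 libraries held 0.0343 to 0.197 CPM of Xist. Whether each 2018 library is 1 male mouse, as labelled, or a pool or mixture that includes females was not tested. Markers of choroid plexus summed to 1050 CPM in sham library 1 against 15.7 and 50.6 CPM in the others, and to 9.05 CPM in TBI library A and 10.7 CPM in zileuton library C against 462 to 1440 CPM in the rest of that batch. In TBI of the 2018 batch these markers summed to 1130 to 1310 CPM. The 9 calls below held without sham library 1, but that fit leaves out the sham library nearest to TBI in these markers. It therefore cannot show whether this difference in tissue matters, and the part of choroid plexus in the calls was not tested. No pair of libraries of a group agreed within counting noise. The libraries of a group were taken as separate mice, as the study gives the group size. For the 2018 batch n and SD count libraries that may each hold RNA of several mice.

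The first comparison asked which transcripts differ between injured and sham brain. Of the 10 ligands, 9 were higher after TBI at an adjusted p under 0.05 (edgeR quasi-likelihood test, Benjamini-Hochberg over 19536 genes tested), and the same 9 had every TBI library above every sham library. Of all genes tested, 28.0% passed that threshold, 16.8% passed it and were higher after TBI, and 24.6% had every TBI library above every sham library. The median log2 fold change of the 10 ligands was 4.69, against 0.0166 over all genes tested. Ccl19 was the ligand without a call. The plot of CPM in sham and TBI libraries shows the gap for each gene.

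**Figure D1:**
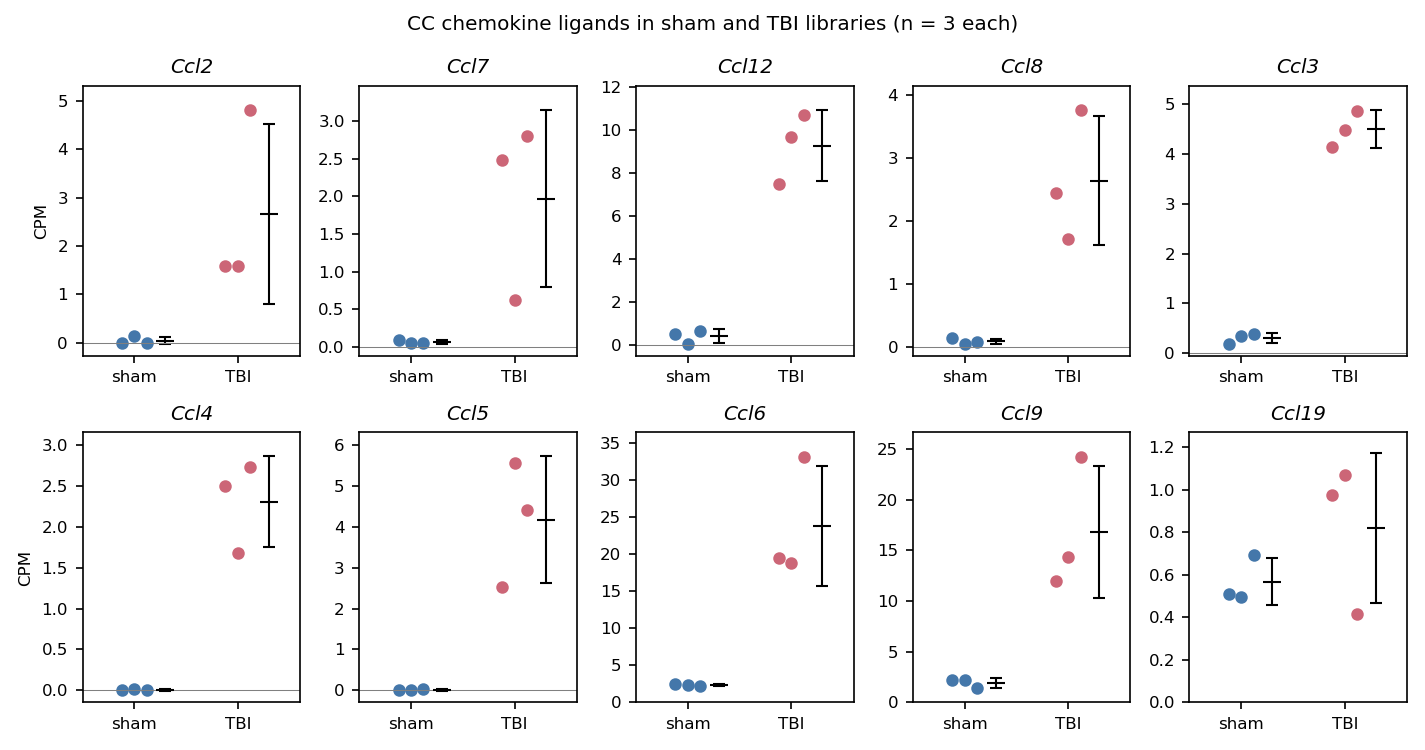
CPM of each ligand in the 3 sham and 3 TBI libraries of the 2018 batch (points), with the mean and SD beside them, each panel on its own axis. The groups are apart for 9 ligands and overlap for Ccl19.

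Among the monocyte chemoattractants, Ccl2 (ENSMUSG00000035385), the main ligand of CCR2, had 0, 6 and 0 counts in the sham libraries and 78, 77 and 207 in the TBI libraries. All of its sham counts came from library 2. Its mean was 0.0432 ± 0.0749 CPM (SD, n = 3) in sham and 2.66 ± 1.86 CPM (SD, n = 3) in TBI, with a log2 fold change of 5.85 (SE, the standard error, 0.920; adjusted p = 0.00194 from edgeR). Without TBI library 3 it was 5.11 and without sham library 3 it was 5.26, and without sham library 2 the remaining sham libraries held no count. Ccl7 (ENSMUSG00000035373), a second CCR2 ligand that lies next to Ccl2, had 4, 2 and 2 counts in sham and 122, 30 and 121 in TBI. TBI library 2 was the low one, at 0.616 CPM against 2.48 and 2.81 CPM, and still stood above every sham library. The log2 fold change of Ccl7 was 5.03 (SE 0.707, adjusted p = 0.00108 from edgeR).

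Ccl12 (ENSMUSG00000035352), a rodent CCR2 ligand, lay at 0.511, 0.0432 and 0.673 CPM in sham and at 7.48, 9.69 and 10.7 CPM in TBI. Sham library 2 was far below the other sham libraries, with 2 counts against 23 and 32, while the TBI libraries lay close together. Its log2 fold change was 4.49 (SE 0.553, adjusted p = 0.000513 from edgeR), and it was 3.94 without sham library 2. Ccl8 (ENSMUSG00000009185), a monocyte chemoattractant protein encoded next to Ccl12, lay at 0.133, 0.0432 and 0.0842 CPM in sham and at 2.44, 1.72 and 3.76 CPM in TBI. The groups were well apart in Ccl8, whose log2 fold change was 4.89 (SE 0.485, adjusted p = 0.000152 from edgeR).

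Of Ccl3, Ccl4 and Ccl5, it was Ccl3 (ENSMUSG00000000982), a ligand of CCR1, that had the smallest spread among TBI libraries relative to its mean. It lay at 0.178, 0.346 and 0.379 CPM in sham and at 4.13, 4.49 and 4.87 CPM in TBI, with a log2 fold change of 3.89 (SE 0.304, adjusted p = 4.22e-05 from edgeR). Ccl4 (ENSMUSG00000018930), its neighbour on the chromosome, had 0, 1 and 0 counts in sham and 123, 82 and 118 in TBI. Ccl5 (ENSMUSG00000035042), a chemokine of T cells and activated myeloid cells, had 0, 0 and 2 counts in sham and 124, 272 and 191 in TBI. Both genes were therefore close to undetected in sham and plainly counted in every TBI library. Scaled for depth, the summed counts of Ccl4 were 318 times higher in TBI with an exact 95% interval of 56.7 to 12600, and those of Ccl5 were 289 times higher with an interval of 79.6 to 2390, both covering counting error only. The edgeR adjusted p was 4.86e-05 for Ccl4 and 6.61e-05 for Ccl5.

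Ccl6 and Ccl9 were the only ones of the 10 ligands with at least 66 counts in every sham library. Ccl6 (ENSMUSG00000018927), known from macrophages and microglia, lay at 2.49, 2.31 and 2.17 CPM in sham and at 19.5, 18.8 and 33.1 CPM in TBI. Ccl9 (ENSMUSG00000019122), an inflammatory chemokine of macrophages, lay at 2.24, 2.25 and 1.39 CPM in sham and at 12, 14.3 and 24.2 CPM in TBI. TBI library 3 was the high one in both. In the edgeR fit they had the smallest rises of the 9. Log2 fold changes were 3.35 (SE 0.238, adjusted p = 2.73e-05 from edgeR) for Ccl6 and 3.10 (SE 0.306, adjusted p = 0.000148) for Ccl9. That order depended on the method. With limma at a pseudocount of 1, Ccl7 had the smallest log2 fold change at 1.59, followed by Ccl2 and then Ccl9 at 1.98. Ccl6, at 2.63, was then below only Ccl12 at 3.46. Ccl6 overlaps a transcript on the opposite strand in GENCODE M21, and so do Ccl2 and Ccl19, and whether counting used the strand is not given in the sources used here.

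Ccl19 (ENSMUSG00000071005) had 23, 23 and 33 counts in sham and 48, 52 and 18 in TBI. TBI library 3, which was the highest TBI library for 8 of the 10 ligands, was the lowest of all 6 for Ccl19, at 0.418 CPM. The log2 fold change was 0.53 with a 95% interval of -0.43 to 1.50 (SE 0.424, adjusted p = 0.393 from edgeR). RefSeq lists pseudogenes of Ccl19, and how reads shared with them were counted is not given in the sources used here.

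Ranked by size among the 19536 genes tested, from the largest rise down, Ccl5 and Ccl4 stood at positions 32 and 33 of the fitted log2 fold changes, Ccl2 at 77, Ccl7 at 110, Ccl8 at 121 and Ccl12 at 144. Ccl3 followed at 206, Ccl6 at 297 and Ccl9 at 351, and Ccl19 at 3989. The positions of Ccl4 and Ccl5 rest on near-empty sham libraries. Those of Ccl2, Ccl7 and Ccl8 rest on at most 6 counts in any sham library.

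Levels of different genes can be compared only per length, here as the deposited FPKM, which corrects for gene length and library total. The 10 ligands together summed to 3.98 ± 0.548 FPKM (SD, n = 3) in sham and 61.7 ± 13.8 FPKM in TBI. In sham Ccl6 led with 1.27 ± 0.0809 FPKM, followed by Ccl12, Ccl19 and Ccl9 at 0.747, 0.643 and 0.631 FPKM, and each gene overlapped its neighbour in that order. In TBI Ccl12 led with 17.6 ± 3.12 FPKM and Ccl6 was second with 13.4 ± 4.37 FPKM, and these 2 overlapped. Ccl6 stood apart from Ccl3 at 5.97 ± 0.482 FPKM, and from Ccl3 down to Ccl2 at 2.36 ± 1.62 FPKM each neighbour overlapped the next. Ccl19 closed the order, apart from Ccl2, at 0.966 ± 0.424 FPKM. By role, Ccl6 and Ccl9 made up 37.2% to 59.3% of the summed FPKM in sham libraries and 27.9% to 34.2% in TBI libraries, whereas Ccl2, Ccl7, Ccl8 and Ccl12 made up 9.75% to 32.9% in sham and 43.5% to 45.6% in TBI. Ccl3, Ccl4 and Ccl5 made up 5.44% to 14.2% in sham and 19.7% to 26.3% in TBI, and Ccl19 made up 13.8% to 17.9% in sham and 0.626% to 2.27% in TBI. The shares did not overlap between the groups in any of these sets.

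**Figure D2:**
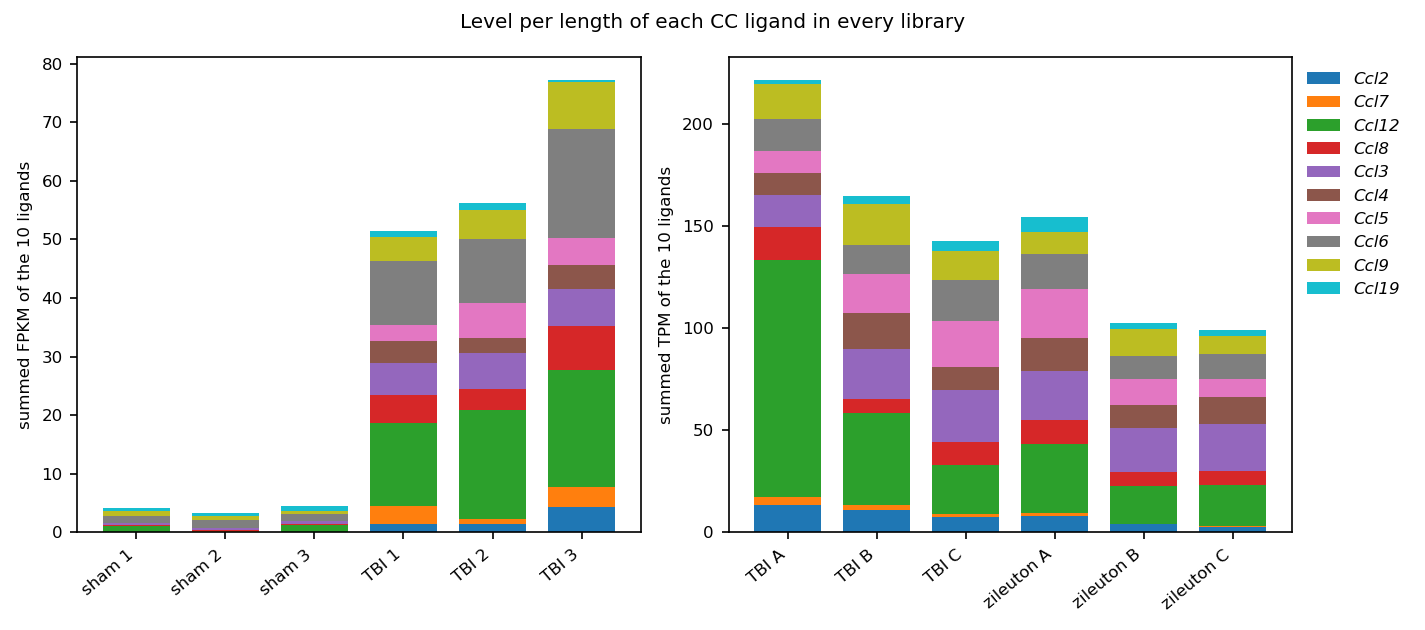
Stacked levels of the 10 ligands in every library, as FPKM in the sham and TBI libraries (left) and as TPM, a length-corrected share of all transcripts, in the TBI and zileuton libraries (right), which are different scales. Ccl12 is the largest part in the TBI libraries of 2018, and in TBI library A of 2022 it reaches 116 TPM.

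Of 13 other mouse CC ligands (Ccl21c and Ccl21d were not on the list), 9 passed the expression filter and 1 was called, downward. Of all 19536 genes tested, 2193 were called lower after TBI, a similar share. The called ligand was Ccl27a, a ligand of CCR10 known from skin and other epithelia. It fell from 106 ± 2.84 CPM (SD, n = 3) in sham to 81.1 ± 8.97 CPM in TBI, a log2 fold change of -0.39 (SE 0.0891, adjusted p = 0.0124 from edgeR). Its groups did not overlap. No call was made for Ccl28, a mucosal chemokine, at a log2 fold change of -0.95 (adjusted p = 0.0811 from edgeR), for Ccl21b, a CCR7 ligand with near-identical copies, at 2.0 (adjusted p = 0.112), or for Ccl17, Ccl21a, Ccl22, Ccl24, Ccl25 and Ccl27b, with adjusted p-values of 0.184 to 0.997. The groups also did not overlap for Ccl28, lower in TBI, and Ccl21b, higher in TBI. Ccl1, Ccl11, Ccl20 and Ccl26 did not pass the filter. The median log2 fold change of the 9 was 0.00136, and without sham library 1 the count of calls was 2.

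Among 13 receptors and atypical receptors of CC ligands, 9 passed the filter and 4 were called, all higher after TBI. Ccr1, the receptor of Ccl3, Ccl5, Ccl6 and Ccl9, lay at 0.311, 0.130 and 0.210 CPM in sham and at 3.17, 3.53 and 9.22 CPM in TBI (log2 fold change 4.60, standard error 0.534, adjusted p = 0.000378 from edgeR). Ccr2, the receptor of Ccl2, Ccl7 and Ccl12 on inflammatory monocytes, lay at 0.311, 0.130 and 0.421 CPM in sham and at 3.29, 4.91 and 7.36 CPM in TBI (log2 fold change 4.16, adjusted p = 0.000243). In both receptors every TBI library stood above every sham library, and TBI library 3 was the highest. Ccr7, the receptor of Ccl19, rose by a log2 fold change of 3.25 (adjusted p = 0.000911 from edgeR), and Ccrl2, an atypical receptor, by 2.58 (adjusted p = 0.000243). Ccr9, Ccr10, Ackr1, Ackr2 and Ackr4 had log2 fold changes of 0.13, 0.27, -0.08, -0.25 and 1.47 with adjusted p-values of 0.0787 to 0.879, and Ccr3, Ccr4, Ccr6 and Ccr8 did not pass the filter.

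**Figure D3:**
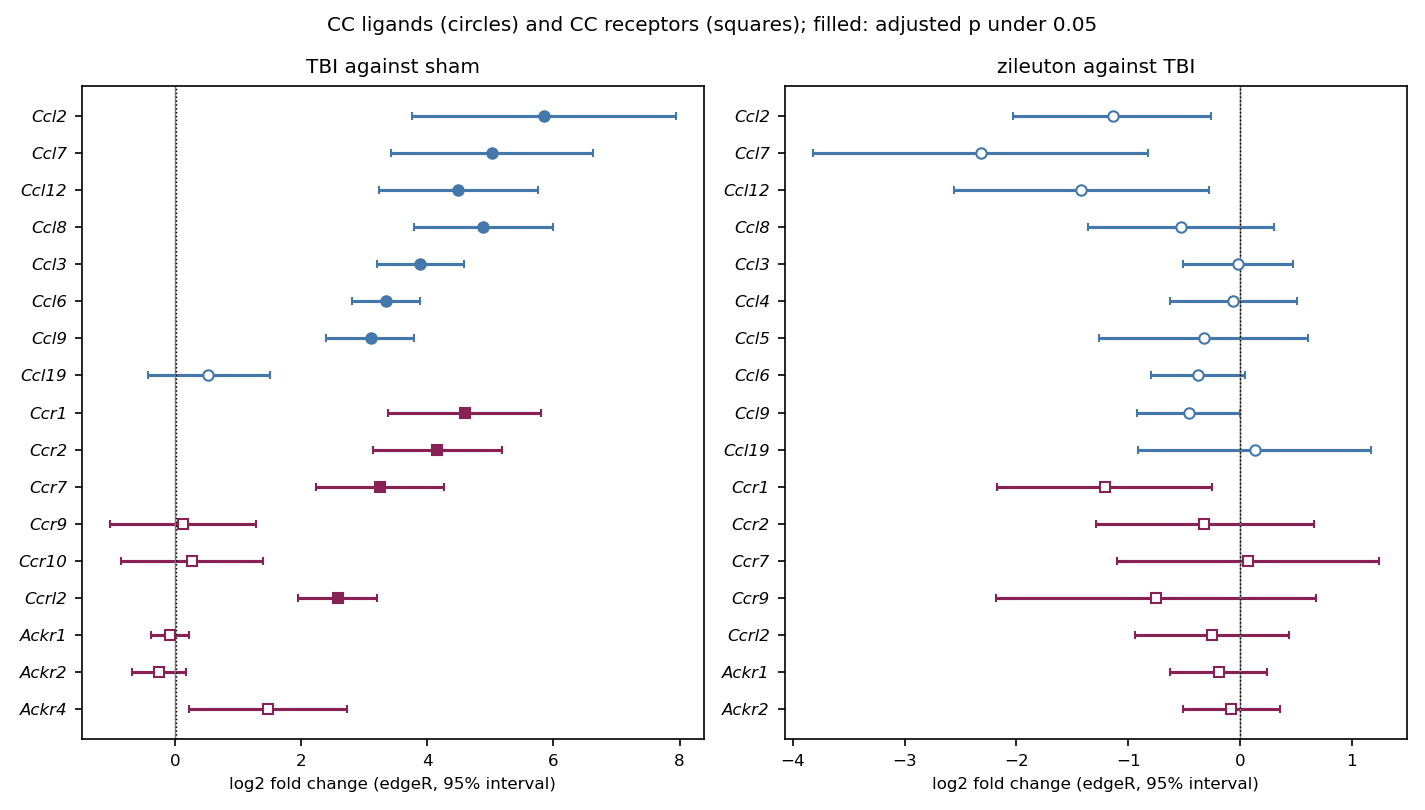
Log2 fold changes from edgeR with 95% intervals for the ligands (circles) and receptors of CC ligands that passed the filter (squares), TBI against sham on the left and zileuton against TBI on the right; filled symbols have an adjusted p under 0.05 and the dotted line is the median of all genes tested. Ccl4 and Ccl5 are left out on the left because their sham libraries were nearly empty, and on the right no symbol is filled.

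Markers of several cell types moved with the ligands. All 8 markers of homeostatic microglia and all 8 of activated microglia and macrophages were called higher, and their sums rose from 222 to 254 CPM in sham to 580 to 739 CPM in TBI and from 1520 to 1760 CPM to 8910 to 11500 CPM. Most of the second sum was Apoe, at 1450 to 1710 CPM in sham and 7830 to 9180 CPM in TBI. All 6 monocyte markers were called higher, with sums of 70.4 to 76.0 CPM in sham and 176 to 221 CPM in TBI. The largest part of these sums was Fn1, at 42.6 to 45.2 CPM in sham and 117 to 137 CPM in TBI. Of 8 neutrophil markers 6 were tested and all 6 were called higher (0.648 to 1.41 CPM in sham, 17.4 to 66.7 CPM in TBI), and Ly6g, Camp and Cxcr2 had no count in sham. Of 6 NK cell markers 2 were tested and both were called higher, with sums of 0.173 to 0.189 CPM in sham and 1.99 to 6.48 CPM in TBI. A marker nearly absent from sham could pass the filter only through the TBI libraries, as Gzma, Eomes, Cxcr2 and Mmp8 did. A call of such a marker could only point upward. Of 8 T cell markers 4 were tested and 1 was called higher, and their sums overlapped at 8.99 to 22.7 CPM in sham and 5.02 to 31.0 CPM in TBI. Most of these sums was Cd4, at 7.52 to 21.3 CPM in sham and 3.37 to 27.3 CPM in TBI. Every TBI library lay above every sham library for Cd3g, Lck, Cd8a and Cd8b1, while Cd3d, Cd3e, Cd4 and Trac overlapped. Of 7 markers of border macrophages 5 were called higher, as were 5 of 6 of astrocytes, 5 of 6 of endothelial cells, 4 of 6 of oligodendrocytes (5290 to 5930 CPM in sham, 6100 to 11100 CPM in TBI) and 5 of 5 of fibroblasts and meninges. Of 5 red blood cell markers 3 were called lower, with sums of 151 to 244 CPM in sham and 89.3 to 141 CPM in TBI. Of the tested markers of dendritic cells 1 was called higher and 1 lower, of those of B cells 1 was called higher, and none of choroid plexus was called. Of 6 neuronal markers 4 were called lower, with sums of 7590 to 8170 CPM in sham and 4690 to 5990 CPM in TBI. The part of these cell types in the rise of the ligands was not tested.

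The second comparison asked whether zileuton alters transcripts of the injured brain at 7 days. No ligand was called, nor was any gene (0.0% of 17363 genes tested, edgeR, smallest adjusted p = 0.185). An unadjusted p under 0.05 was reached by 1186 genes, 6.83% of those tested, and DESeq2 called 26 genes, none of them a CC ligand. Of the 10 ligands, 9 had a lower mean with zileuton in the fit, and 4, all lower, had an unadjusted p under 0.05, namely Ccl2, Ccl7, Ccl9 and Ccl12, where 3.9% of all genes tested were lower at that p. In 3 of them, Ccl2, Ccl7 and Ccl9, every zileuton library lay below every TBI library, which held for 7.04% of all genes tested. Among genes with up to 2000 bases of exons, as 9 of the 10 ligands have, 8.91% were lower at an unadjusted p under 0.05. The median log2 fold change of the 10 was -0.42, against 0.00254 over all genes tested. The count of 4 fell to 2 without TBI library A or without zileuton library C and to 1 without zileuton library B.

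**Figure D4:**
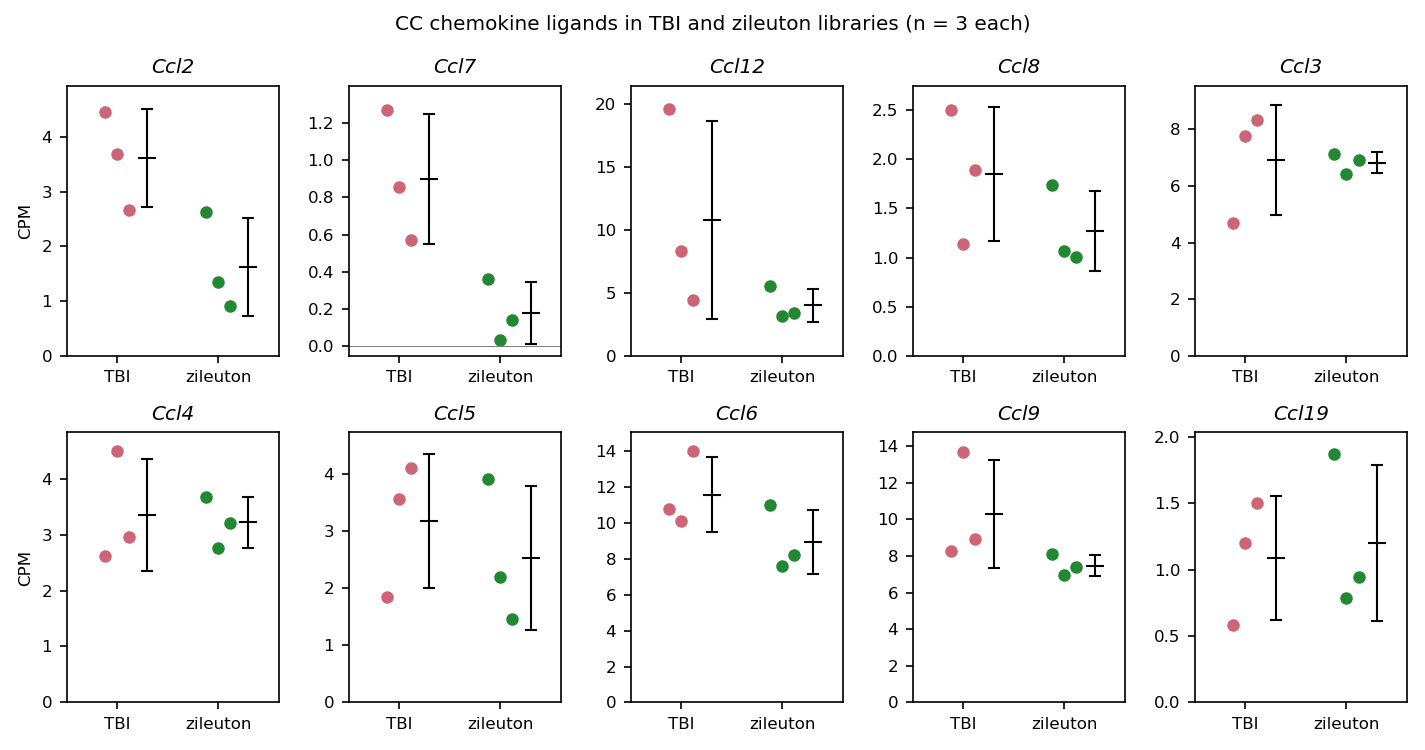
CPM of each ligand in the 3 TBI and 3 zileuton libraries of the 2022 batch (points, libraries A, B and C from left to right), with the mean and SD beside them, each panel on its own axis. The groups are apart for Ccl2, Ccl7 and Ccl9, in the last by 8.26 against 8.09 CPM, and overlap for the rest.

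The monocyte chemoattractants held the largest differences. Ccl7 had 37, 30 and 16 estimated counts in TBI libraries A, B and C and 11, 1 and 4 in zileuton libraries A, B and C. It lay at 0.899 ± 0.351 CPM (SD, n = 3) in TBI and 0.178 ± 0.168 CPM in zileuton, a log2 fold change of -2.32 (SE 0.652, 95% interval -3.82 to -0.82, unadjusted p = 0.00714, adjusted p = 0.713 from edgeR). It ranked position 6 among 17363 genes from the largest fall up, at counts that were low in every zileuton library. Without single libraries its log2 fold change was -3.37 (without zileuton library A) to -1.82 (without zileuton library B), and with limma at a pseudocount of 1 it was -1.25. Ccl2 lay at 4.46, 3.69 and 2.67 CPM in TBI and at 2.63, 1.35 and 0.906 CPM with zileuton. The gap between the groups was narrow, from 2.63 to 2.67 CPM, and the log2 fold change was -1.14 (SE 0.385, 95% interval -2.03 to -0.26, unadjusted p = 0.0176, adjusted p = 0.713 from edgeR). Across alternatives its adjusted p was 0.298 to 0.977.

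Ccl12 lay at 19.6, 8.32 and 4.46 CPM in TBI and at 5.53, 3.17 and 3.38 CPM with zileuton. TBI library A held more Ccl12 than the other TBI libraries together, and zileuton library A exceeded TBI library C, so that the groups overlapped. Its log2 fold change of -1.42 (SE 0.495, 95% interval -2.56 to -0.28, unadjusted p = 0.0206, adjusted p = 0.713 from edgeR) was -0.67 (unadjusted p = 0.0828) without TBI library A. Ccl8 lay at 2.50, 1.14 and 1.89 CPM in TBI and at 1.74, 1.07 and 1.01 CPM with zileuton, a log2 fold change of -0.53 with a 95% interval of -1.36 to 0.30 (adjusted p = 0.753 from edgeR). TBI library A was the highest for Ccl8 as well.

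Ccl9, a CCR1 ligand, lay at 8.26, 13.7 and 8.95 CPM in TBI and at 8.09, 6.94 and 7.39 CPM with zileuton. In CPM, TBI library B set much of its difference, which was -0.46 on the log2 scale (SE 0.200, unadjusted p = 0.0481, adjusted p = 0.713 from edgeR) and -0.20 (unadjusted p = 0.209) without that library. In TPM, Ccl9 lay at 17.0, 19.8 and 14.2 in TBI and at 10.8, 13.3 and 8.81 with zileuton. On that scale limma at a pseudocount of 1 gave a log2 fold change of -0.59 (unadjusted p = 0.012, adjusted p = 0.734). Ccl6 lay at 10.8, 10.1 and 14.0 CPM in TBI and at 11.0, 7.63 and 8.23 CPM with zileuton, a log2 fold change of -0.38 with a 95% interval of -0.80 to 0.04 (adjusted p = 0.713 from edgeR).

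Ccl3, Ccl4, Ccl5 and Ccl19 overlapped between the groups. Ccl3 lay at 6.92 ± 1.94 CPM (SD, n = 3) in TBI and 6.82 ± 0.371 CPM with zileuton, a log2 fold change of -0.02 with a 95% interval of -0.51 to 0.47. Ccl4 lay at 3.35 ± 1.00 CPM in TBI and 3.22 ± 0.460 CPM with zileuton, with -0.06 and an interval of -0.63 to 0.51 on the log2 scale. The sign of both differences turned under other scalings. Ccl5 lay at 1.85, 3.55 and 4.10 CPM in TBI and at 3.91, 2.20 and 1.46 CPM with zileuton (log2 fold change -0.32, 95% interval -1.26 to 0.61). Ccl19 lay at 0.583, 1.20 and 1.50 CPM in TBI and at 1.87, 0.785 and 0.941 CPM with zileuton (log2 fold change 0.13, 95% interval -0.91 to 1.17). The adjusted p of these 4 genes was 0.859 to 0.984 from edgeR.

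In the TBI group of 2022 the role sets did not have the same highest library. In TBI library A the 4 monocyte chemoattractants summed to 27.8 CPM, against 14.0 in library B and 9.59 in library C, while Ccl3, Ccl4 and Ccl5 summed to 9.15 CPM in library A, against 15.8 and 15.4. Library A was thus the highest of the group in the first set and the lowest in the second. It was also the lowest for the sum of Ccl6 and Ccl9, at 19.1 CPM against 23.7 and 22.9, and for Ccl19, at 0.583 CPM against 1.20 and 1.50. In the zileuton group library A was the highest for all 10 ligands, with 10.3 CPM of the monocyte chemoattractants against 5.62 and 5.44 in libraries B and C, and its sum for Ccl3, Ccl4 and Ccl5, 14.7 CPM, lay within the range of the TBI group. In TPM the monocyte chemoattractants made up 67.5%, 39.6% and 31.0% of the 10 ligands in TBI libraries A, B and C and 35.6%, 29.0% and 30.2% in zileuton libraries A, B and C. The plot of summed CPM by role shows these libraries by letter.

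**Figure D5:**
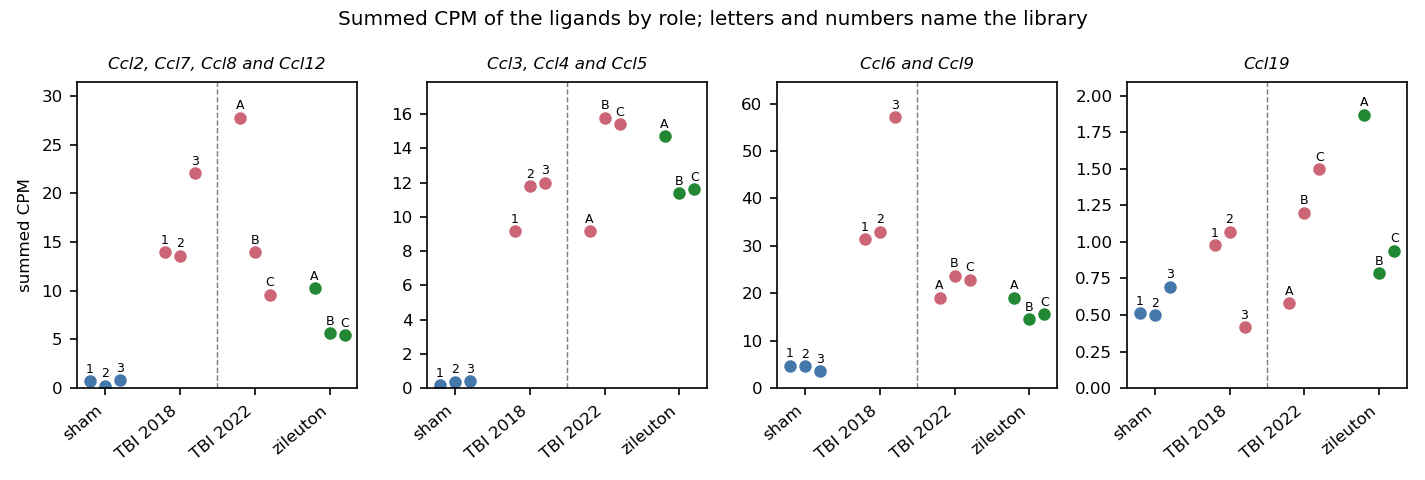
Summed CPM of the 4 role sets in each library, with the 2018 batch left of the dashed line and the 2022 batch right of it; numbers and letters name the libraries. The 2 batches were not compared with each other, and the sum of Ccl2, Ccl7, Ccl8 and Ccl12 is highest in TBI library A at 27.8 CPM.

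In CPM the 10 ligands summed to 56.6, 54.7 and 49.4 in TBI libraries A, B and C and to 45.9, 32.4 and 33.6 with zileuton, which did not overlap. Per length, the 10 ligands summed to 177 ± 40.8 TPM (SD, n = 3) in TBI and 118 ± 30.8 TPM with zileuton, with libraries at 222, 165 and 143 TPM against 154, 102 and 99.3 TPM, which overlap. No test was run on the sums. Ccl12 led in both groups, at 61.8 ± 48.0 and 24.2 ± 8.33 TPM, ahead of Ccl3 at 21.8 ± 5.44 and 22.9 ± 1.62 TPM, and it overlapped Ccl3 in both. Ccl7 closed the order in both, at 2.71 ± 1.16 TPM in TBI, where it overlapped Ccl19, and at 0.567 ± 0.541 TPM with zileuton, where it stood apart from Ccl19 at 4.39 ± 2.39 TPM.

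Of the 13 receptors, 7 passed the filter in this comparison and none was called. Ccr1 lay at 1.92, 2.20 and 1.57 CPM in TBI and at 1.38, 0.660 and 0.418 CPM with zileuton (log2 fold change -1.21, standard error 0.418, unadjusted p = 0.0199, adjusted p = 0.713 from edgeR). Every zileuton library of Ccr1 lay below every TBI library. Ccr2 overlapped, with a log2 fold change of -0.32 and a 95% interval of -1.29 to 0.66. Ccr7, Ccr9, Ccrl2, Ackr1 and Ackr2 had unadjusted p-values of 0.262 to 0.897. Of the other CC ligands 6 passed the filter, none was called, and Ccl27a lay at 46.4 ± 4.05 CPM in TBI and 47.7 ± 6.35 CPM with zileuton.

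The summed markers of other cell types overlapped between TBI and zileuton in every list but that of red blood cells. Homeostatic microglia markers summed to 631 to 928 CPM in TBI and 665 to 863 CPM with zileuton, and none of the 8 had an unadjusted p under 0.05. Activated microglia and macrophage markers summed to 5660, 7470 and 10600 CPM in TBI libraries A, B and C and to 8220, 5800 and 5510 CPM in zileuton libraries A, B and C, and 1 of the 8, Spp1, was lower at an unadjusted p of 0.00727. TBI library A, the highest for the monocyte chemoattractants, was the lowest of its group for these markers. Of 6 monocyte markers, Ly6c2 and Chil3 were lower at unadjusted p-values of 0.0223 and 0.00808. Plac8 had a log2 fold change of -1.20 (unadjusted p = 0.0526) and F13a1, Fn1 and Vcan had 0.01, 0.08 and 0.20, and the list summed to 234 to 250 CPM in TBI and 178 to 383 CPM with zileuton, highest in zileuton library A. Of 8 neutrophil markers, 4 passed the filter, and the sums were 4.64 to 7.23 CPM in TBI and 1.6 to 8.58 CPM with zileuton, with Ly6g at 0 in every library. Of 6 endothelial markers 2 were higher with zileuton at an unadjusted p under 0.05, as was 1 of 6 of astrocytes. Red blood cell markers were lower in 4 of 5 at an unadjusted p under 0.05, at 216 to 342 CPM in TBI and 191 to 206 CPM with zileuton. The part of these cell types in the differences of the ligands was not tested. Gene length moved with this comparison: genes with up to 2000 bases of exons, as 9 of the 10 ligands have, had a median log2 fold change of -0.112, longer genes one of 0.0196, and 8.91% of the short genes were lower at an unadjusted p under 0.05. With the length trend removed, Ccl7, Ccl2 and Ccl12 had log2 fold changes of -2.19, -1.03 and -1.26, and Ccl9 an unadjusted p of 0.0669.

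The genes whose pattern over the 12 libraries was most like the average of the ligands, by the root-mean-square difference of log2 CPM centred within each batch, were Fcgr2b (0.171), C5ar1 (0.174), H2-K1 (0.202), Treml2 (0.209) and Ms4a6d (0.209), out of 16492 genes compared, where the median gene differed by 1.48. Fcgr2b encodes an inhibitory Fc receptor, C5ar1 the receptor of complement C5a and H2-K1 an MHC class I heavy chain. Their log2 fold changes were 3.98 to 4.31 after TBI and -0.60 to -0.35 with zileuton, and none of the 5 had an unadjusted p under 0.05 in the latter. Of the ligands themselves, Ccl6 (0.334), Ccl8 (0.351) and Ccl3 (0.412) lay nearest to the average and Ccl19 (1.41) farthest. The points share libraries and batches, and the likeness is a description.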

How the data were processed

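RNA-seq of mouse brain was deposited for 12 libraries in 4 groups of 3. For the batch of 2018 the authors deposited raw counts per gene and FPKM, which equal those counts divided by library total and gene length. For the batch of 2022 the authors deposited estimated counts, some of them fractional, together with TPM. The submitters' processing notes name HISAT2, featureCounts of Subread, DESeq2 and the build GRCm39. Versions, annotation and strand setting are not given in the sources used here. The zileuton table numbers its columns 2, 3 and 6 in each group, which are not the numbers of the labels, so these libraries are called A, B and C and only their group was used, and T columns were taken as the second TBI group.

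Estimated counts were rounded, where raw counts had been planned for. Each comparison was fitted alone with edgeR 4.0.16 in R 4.3.3 (TMM, filterByExpr, glmQLFit and glmQLFTest), with Benjamini-Hochberg adjustment over all genes tested and a threshold of 0.05. The standard error is the log2 fold change divided by the square root of F. Depth was 42929862 to 48684674 counts per library in 2018 and 27845562 to 35453257 in 2022, and exact 95% intervals of count ratios cover counting error only. An exact permutation test of 3 against 3 cannot go below 0.1 (two-sided).

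Alternatives were DESeq2's size factors, DESeq2 1.42.0, keeping every gene with 1 count, keeping genes with 10 counts or more in all libraries, limma 3.58.1 on log2(FPKM or TPM + 1) and + 0.1 for genes with a mean of at least 0.5 and without that filter, removal of the gene length trend (GENCODE M21 exons), a replicate block and leaving out each library. A block by column number was added after the data were seen. Same-numbered sham and TBI libraries did not deviate together (r of -0.023, -0.094 and -0.033). The edgeR and DESeq2 tests were tested on simulated counts with planted changes. The share of false calls stayed under the set limit for edgeR in the draw that was kept, and was somewhat above it in some other random draws. DESeq2 exceeded that limit in every draw, and its check was then reduced to recovery and direction, so calls by DESeq2 alone are less certain.

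Members, gene lists, role sets and tests were chosen with earlier results of these data known. All 10 members are named in both comparisons, with the other CC ligands and receptors that passed the filter, the 5 genes most like the members and a few marker genes. In the receptor and marker lists, 2 genes are not reported here, and the counts and sums leave them out. A table of gene names gave symbols for 34808 and 52081 identifiers, and promoters and gene order from RefSeq on GRCm38.p6, a build other than that of the notes, so no other coordinates are given. Figures were drawn with matplotlib 3.10.9.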

Additional observations from a re-analysis of the deposited data

How the results depend on the processing

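After TBI the 9 called ligands kept their direction and call in every alternative that tested them. The size of the change depended on the method, most for ligands with few sham counts. With all libraries kept, the log2 fold change ranged from 1.59 to 5.06 for Ccl7 and from 2.15 to 8.19 for Ccl4. For Ccl6 it ranged from 2.63 to 3.35. The lowest of these values came from limma at a pseudocount of 1. The filter of at least 10 counts in every library tested 3 ligands and called 2, and called 1 receptor. The count of other CC ligands was 2 with DESeq2 and with limma at a pseudocount of 1, and that of receptors was 2 with limma at either pseudocount. Without single libraries the counts were 3848 to 4956 genes, 9 to 9 ligands, 1 to 2 other CC ligands and 4 to 5 receptors. With the replicate block, which the libraries did not bear out as a pairing, 4337 genes were called against 5479, and still 9 ligands. For zileuton, no paired analysis was possible by the labels because its columns do not carry their numbers. A replicate block by the shared column numbers, added after the data were seen (r of -0.28, 0.063 and -0.282 for same-numbered columns), called 0 genes and left 3 ligands with an unadjusted p under 0.05. DESeq2 called 26 genes, the fit without a filter 4, limma 4 at a pseudocount of 1 and 3 at 0.1, none of them a ligand. Without single libraries 0 to 0 genes were called, and 1 to 4 ligands had an unadjusted p under 0.05. The log2 fold change of Ccl3 turned positive with limma (0.09 and 0.10), without the length trend (0.15) and with the block (0.01), and lay between -0.24 and 0.13 without single libraries. That of Ccl4 turned positive with limma (0.05 and 0.06) and without the length trend (0.11) and lay between -0.22 and 0.21 without single libraries, and that of Ccl19 lay between -0.34 and 0.42. The cause was not tested. Leaving out a library left 2 in 1 group, whose spread was shared with the other group.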
